A study of Mus musculus with 20 samples.

Results

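The effect of an extra copy of a stretch of chromosome 16 on the rest of the transcriptome was examined in mouse hearts at the embryonic stage E13.5. The comparison was of 5 hearts of genotype Dp1Tyb with all 10 hearts labelled wildtype (WT), chosen by these labels from a bulk RNAseq series of 20 whole embryonic hearts. The other 5 hearts were labelled Dp1TybDyrk1a+/+/- and entered the fit only through the estimate of the spread, except where they are named. The members described are the 15208 tested genes that lie outside the duplicated stretch, out of 15304 tested.

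Dp1Tyb mice carry a duplication that runs from Lipi to Zbtb21 (chr16:75540514-97962627 of GRCm38.p6) and is orthologous to most of human chromosome 21. Dp1Tyb embryos are a model of Down syndrome (DS) and develop congenital heart defects with incomplete penetrance. The Dp1TybDyrk1a+/+/- embryos carry the same duplication but with 1 of the 3 copies of Dyrk1a inactivated, and WT embryos carry neither. The duplication is in every cell of the embryo, so it is not restricted to a lineage. The labels state the genotype and the stage of each heart and give neither the litter nor the sex of the embryo. By the study's account controls were littermates of mutants, and Dp1TybDyrk1a+/+/- mice were bred as a strain of their own. Some of the 10 WT hearts may therefore come from litters of that strain, and the labels do not say which. Each heart was 1 library, and whether a library was 1 embryo or a pool is not stated in the labels.

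The heart of a mouse embryo at E13.5 is close to completing its septa. It is made up of atrial and ventricular cardiomyocytes, the endocardium that lines the chambers, coronary endothelium, an outer epicardium, and mesenchyme that forms valves, fibroblasts and vessel walls. The matrix between these cells is rich in hyaluronan and proteoglycans early on and gains collagen as valves and septa mature. Blood cells, macrophages, ingrowing nerves and glia are also in the dissected organ. In a whole heart, fewer cells of a type and less RNA per cell of that type cannot be told apart.

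All values are log2-transformed normalized counts as deposited, and a difference of 1 is a doubling on this transformed scale. Folds and summed normalized counts below undo the log of these values, and are not folds or sums of raw counts. The transformation draws the values of weakly expressed genes together, so their differences are understated. Those of other genes may be understated too. In the Dp1Tyb hearts with high Xist, for example, Y-linked Ddx3y still had values of 7.41 to 7.89. Library depth is unknown. Lane 3 held 2 Dp1Tyb and 4 WT libraries, lane 6 held 2 and 4, and lane 7 held 1 and 2. The defining markers of every cell type of the heart that was listed were detected, with mean WT log2 values such as 17.07 for Myh7 of ventricular muscle, 13.80 for Myl7 of atrial muscle and 12.03 for Npr3 of the endocardium.

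The hearts were not balanced for sex-linked transcripts. The Y-linked genes Ddx3y, Kdm5d, Eif2s3y and Uty had a mean log2 value of 7.06 to 7.50 in 4 of the 5 Dp1Tyb hearts and 9.52 in Dp1Tyb heart 6. Among the WT hearts this mean was 7.28 to 7.46 in 3 hearts, all of lane 3, and 9.52 to 9.63 in the other 7. Xist, the RNA that coats the inactive X chromosome of female cells, ran the opposite way, at 12.98 to 13.64 in the 7 hearts with a low Y-linked level and 7.77 to 8.11 in the 8 with a high one. The sex-linked transcripts were therefore unevenly spread over the genotypes. Counts with the Y-linked level of each heart as a covariate are given for the lists and for selected genes after the gene groups.

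**Figure D1:**
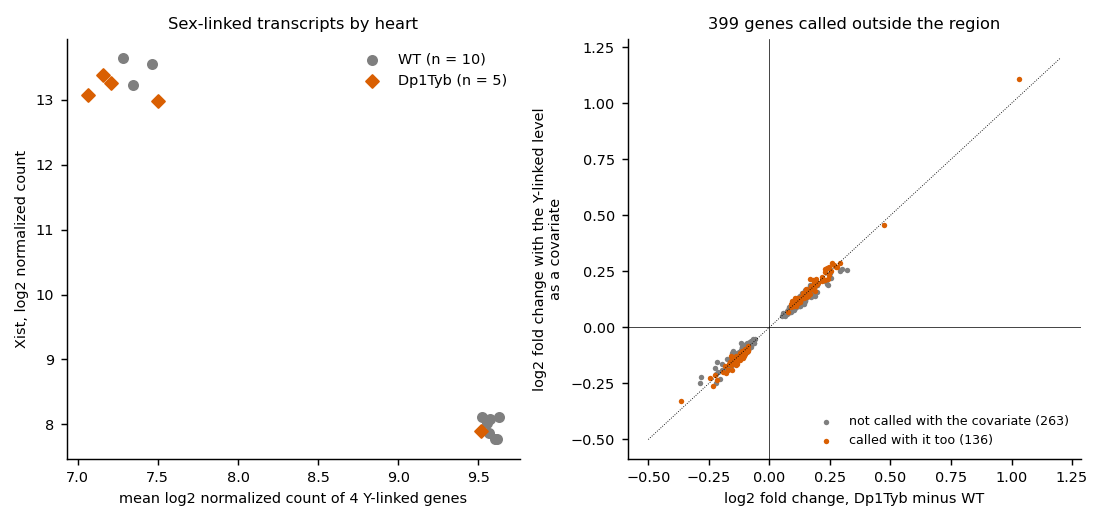
Left, the log2 normalized count of Xist (vertical axis) against the mean over 4 Y-linked genes (horizontal axis), 1 point per heart, for 10 WT hearts (grey circles) and 5 Dp1Tyb hearts (orange diamonds). Right, the log2 fold change of each of the 399 genes called outside the duplicated stretch with the Y-linked level as a covariate (vertical) against that without it (horizontal), with equality as a dotted line and orange for the 136 genes called in both fits. All 399 points keep their sign.

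Outside the duplicated stretch, 399 of the 15208 tested genes differed between Dp1Tyb and WT hearts, 2.62% (limma, Benjamini-Hochberg adjusted P-value under 0.05, as for every call below). Increases made up 1.35% of tested genes and decreases 1.28%. The changes were small. The median log2 fold change was 0.13 among the 205 increased genes and -0.12 among the 194 decreased genes. Over all tested genes outside the stretch it was -0.0023, and 48.2% of them had a log2 fold change above 0. The shares of 1.35%, 1.28% and 48.2% are those to set beside the counts of each list below. The lists were chosen with earlier results of these data known, so an excess over these shares may be built into that choice. Lists also share members, as Vwf is in the hemostasis, endocardium and platelet lists, and are not separate results. Of the 399 genes, 386 were protein coding and 10 were long non-coding RNAs. For 195 of them, 1.28% of tested genes, the 5 Dp1Tyb hearts lay entirely above or entirely below the 10 WT hearts, and whatever the P-value the groups were apart for 334, 2.2%. Within each of the 3 lanes the difference had the same sign for 397 of the 399, which were chosen by the pooled difference over these hearts. The number of calls was 196, 223, 229 and 233 without Dp1Tyb heart 4, 6, 3 or 12, in that order, and 144 with the Y-linked level as a covariate. Of the 187 tested members of the E2F target set 25 decreased (13.4%) and 0 increased, and the other 169 decreased genes lie beyond that set. The genes were sorted into 58 lists of cell type markers and functions, and 80 of the called genes fell in at least 1 list, 55 of them increased and 25 decreased.

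**Figure D2:**
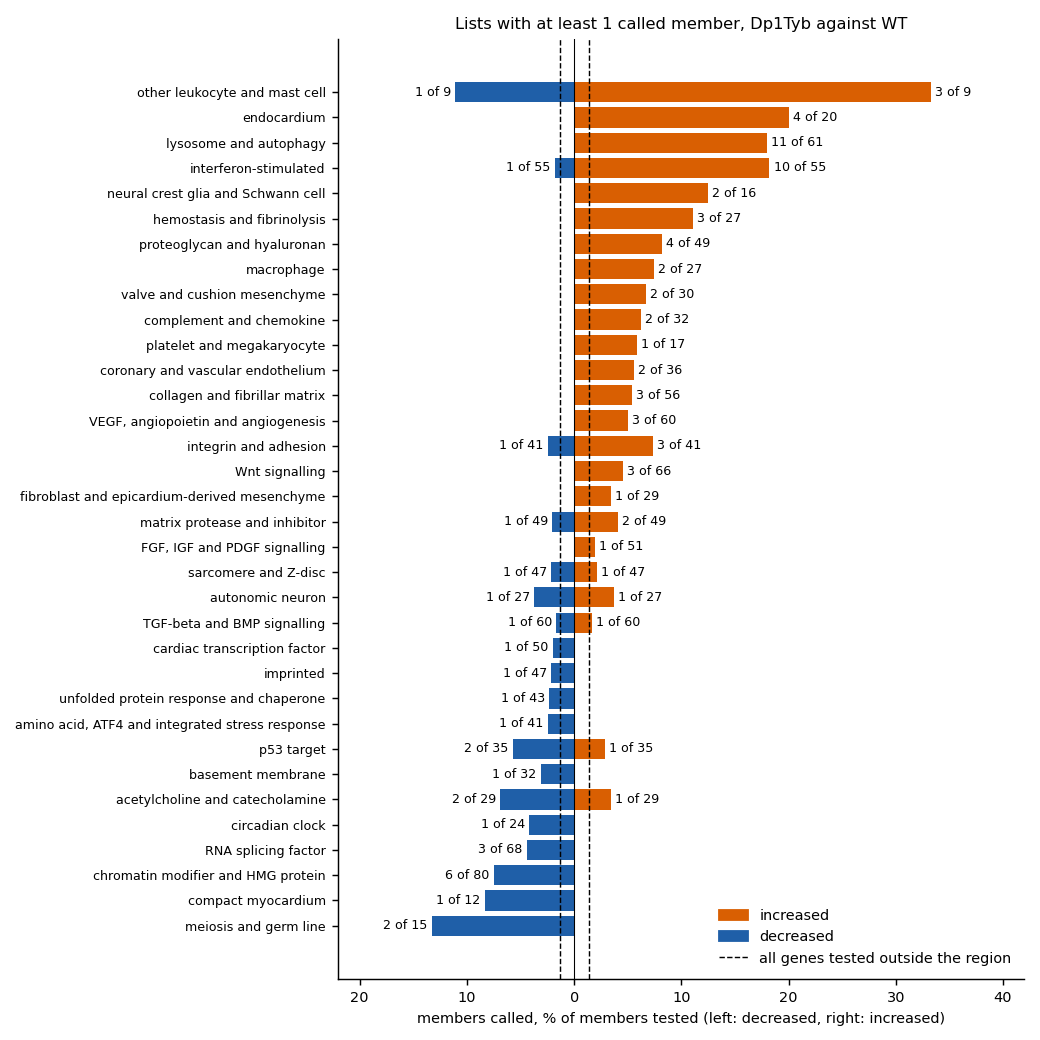
Share of the tested members of each list that were increased (orange, to the right) or decreased (blue, to the left) in Dp1Tyb compared to WT hearts, for the lists with at least 1 called member. Numbers give called of tested members and dashed lines give the share over all tested genes outside the duplicated stretch (1.35% increased and 1.28% decreased). The lysosome and interferon lists hold the most increased members, 11 and 10, and the chromatin list the most decreased members, 6.

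Among called genes the largest increase outside the stretch, apart from that of a pseudogene given below, was in Vwf, which encodes von Willebrand factor, the multimeric glycoprotein that endothelial cells store and that tethers platelets to the vessel wall. Vwf (chr6:125552948-125686679 of GRCm38.p6) had log2 values of 10.53, 10.54, 10.70, 10.75 and 10.73 in Dp1Tyb hearts 3, 4, 6, 7 and 12, and all further sets of values are in this order. The WT hearts had a range of 9.92 to 10.26 and a median of 10.21. Every Dp1Tyb heart lay above every WT heart, by 1.39-fold on average, with a log2 fold change of 0.47 ± 0.05 (SE, limma adj. P-value 2.5e-06). Entpd1 (CD39), an endothelial surface enzyme that breaks down extracellular ATP and ADP, had values of 9.26, 9.36, 9.30, 9.41 and 9.36 against a range of 9.05 to 9.24 and a median of 9.06 in WT hearts. The lowest Dp1Tyb heart was just above the highest WT heart, and the log2 fold change was 0.25 ± 0.03 (SE, limma adj. P-value 1.07e-05). WT heart 10 was the lowest WT heart for Vwf and the highest for Entpd1, far from the other WT hearts in both. Without it Vwf and Entpd1 remained past the threshold, as with every other heart left out. 

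Both genes are in the list of hemostasis and fibrinolysis, in which 3 of 27 tested members rose (11.1%, against 1.35% of all tested genes). In that list 0 fell and 22 had a log2 fold change above 0, with a median of 0.039. The third increased member was Mmrn2, a multimerin of the endothelial matrix, at 10.60, 10.58, 10.63, 10.70 and 10.63 in Dp1Tyb hearts against a range of 10.31 to 10.55 and a median of 10.44 in WT hearts. The groups did not overlap, and the log2 fold change was 0.19 ± 0.03 (SE, limma adj. P-value 0.00163). Clec14a, an endothelial lectin that binds Mmrn2, also rose without overlap, by 0.13 ± 0.03 (SE, limma adj. P-value 0.0164). Summed over the 27 members, the normalized counts were 23002 to 23418 in Dp1Tyb hearts and 21423 to 22509 in WT hearts, without overlap. This sum includes the 3 called members and is not separate from their differences. Vwf is also made by megakaryocytes, the precursors of platelets. Vwf was the only called member of 17 tested in the platelet and megakaryocyte list, and its defining markers Itga2b, Gp9 and Ppbp had log2 fold changes of 0.11, 0.04 and 0.08.

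In the endocardium list 4 of 20 tested members rose and 0 fell, where 1.35% of all tested genes rose. The median log2 fold change was 0.055 and 17 members were above 0. Besides Vwf these were Cytl1, a secreted protein that marks endocardial cells, Wnt4, a Wnt ligand, and Plvap, which forms the diaphragms of endothelial fenestrae. Cytl1 had log2 values of 5.69, 5.57, 5.60, 5.52 and 5.67 in Dp1Tyb hearts against a range of 5.42 to 5.52 and a median of 5.45 in WT hearts, so that 4 Dp1Tyb hearts lay above all WT hearts, with a log2 fold change of 0.15 ± 0.03 (SE, limma adj. P-value 0.00266). Wnt4 was 7.81, 7.81, 7.75, 7.73 and 7.77 in Dp1Tyb hearts, all above the WT range of 7.56 to 7.71, with a log2 fold change of 0.17 ± 0.03 (SE, limma adj. P-value 0.00315). Plvap rose by 0.17 ± 0.04 (SE, limma adj. P-value 0.0367) and lost its call when any of 8 of the 15 hearts was left out. The defining markers Npr3 and Gata4 had log2 fold changes of -0.01 and 0.02 and were not called. In the coronary and vascular endothelium list the median was 0.000, with 19 of 36 tested members above 0. Plvap and Mmrn2 were its 2 increased members, and Fabp4, Cd36 and Aplnr, its defining markers, were not called at log2 fold changes of -0.24, 0.08 and -0.07.

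Among regulators of angiogenesis, Calcrl, the receptor for adrenomedullin and calcitonin gene-related peptide, rose. Its values were 10.94, 10.96, 11.03, 11.11 and 11.03 in Dp1Tyb hearts against a range of 10.72 to 10.88 and a median of 10.83 in WT hearts. Every Dp1Tyb heart was above every WT heart, and the log2 fold change was 0.19 ± 0.03 (SE, limma adj. P-value 0.000236). Ramp3, a receptor-activity-modifying protein that pairs with Calcrl, rose by 0.10 ± 0.02 (SE, limma adj. P-value 0.0051), also without overlap. Ramp3 was chosen after its values were seen. Of the 60 tested members of the list of VEGF, angiopoietin and angiogenesis genes, 3 rose (5.0%, against 1.35% of all tested genes). Besides Calcrl these were Mmrn2 and Clec14a, both given above, and Ramp3 is not in the list. In that list 0 fell, with a median of 0.016.

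**Figure D3:**
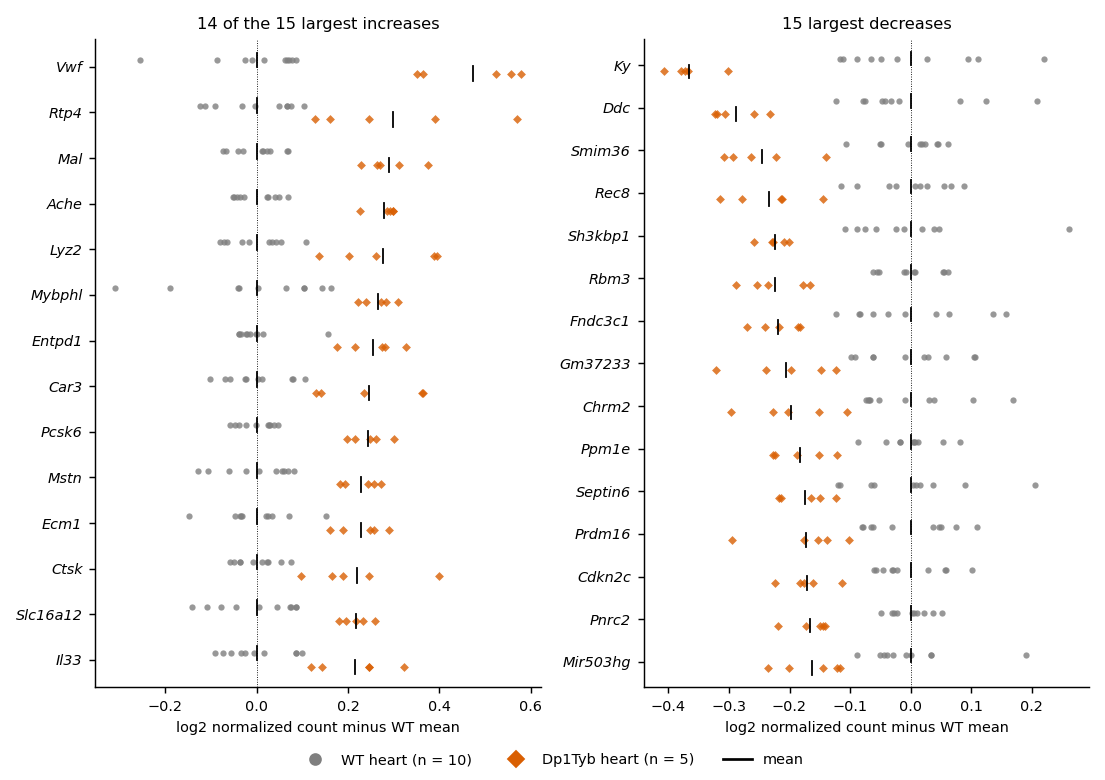
Log2 normalized count of each heart minus the WT mean of the gene, for the 15 largest decreases (right) and 14 of the 15 largest increases (left) among called genes whose hearts do not overlap between genotypes. Grey circles are WT hearts (n = 10), orange diamonds Dp1Tyb hearts (n = 5) and black ticks group means. Gm7334, at a log2 fold change of 1.03, is left out of the plot.

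Genes of cholinergic and catecholamine signalling were among the largest changes, in both directions. Acetylcholine slows the heart through muscarinic receptors, and acetylcholinesterase ends its action. Ache, which encodes acetylcholinesterase, had log2 values of 7.98, 7.98, 7.92, 7.99 and 7.99 in Dp1Tyb hearts against a range of 7.64 to 7.76 and a median of 7.69 in WT hearts. The Dp1Tyb hearts were closely grouped and above all WT hearts, with a log2 fold change of 0.28 ± 0.03 (SE, limma adj. P-value 3.41e-06). Chrm2, the muscarinic receptor of heart muscle, was 9.12, 9.22, 9.03, 9.09 and 9.17 in Dp1Tyb hearts, all below the WT range of 9.25 to 9.49. It fell by 0.20 ± 0.05 (SE, limma adj. P-value 0.0352), and leaving out any of 8 of the 15 hearts ended the call. Ddc, the decarboxylase that makes dopamine from L-DOPA and that is imprinted in the embryonic heart, was 9.89, 9.91, 9.95, 9.89 and 9.98 in Dp1Tyb hearts against a range of 10.09 to 10.42 and a median of 10.18 in WT hearts. The groups did not overlap and the log2 fold change was -0.29 ± 0.06 (SE, limma adj. P-value 0.011). These 3 genes were the only called members among 29 tested in the list. The markers of autonomic neurons Phox2a and Prph had log2 fold changes of -0.02 and 0.02 and were not called, and the median over that list was 0.007.

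Mal, a membrane raft protein of myelinating glia and epithelia, had values of 6.36, 6.40, 6.35, 6.32 and 6.46 in Dp1Tyb hearts against a range of 6.01 to 6.16 and a median of 6.10 in WT hearts. Its Dp1Tyb hearts were all above the WT hearts and its log2 fold change of 0.29 ± 0.03 (SE, limma adj. P-value 3.07e-06) had one of the smallest P-values outside the stretch. Mal and Nrn1, at 0.09 ± 0.02 (SE, limma adj. P-value 0.0368), were the called members of the glia and Schwann cell list. The defining glial marker Sox10 was not called, at a log2 fold change of 0.05.

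Genes of the muscle contractile apparatus changed in both directions. Of 47 tested genes of the sarcomere and Z-disc, 1 rose and 1 fell (2.13% each, against 1.35% and 1.28% of all tested genes). The median was -0.038, with 15 members above 0. Among hearts with a low Y-linked level the median was 0.010, and among those with a high one -0.045. The mean log2 value over the list was 12.18 to 12.31 in Dp1Tyb hearts, inside the WT range of 12.12 to 12.41. The member that fell was Ky, a transglutaminase-like protein of the Z-disc, at 6.75, 6.68, 6.69, 6.68 and 6.65 in Dp1Tyb hearts against a range of 6.94 to 7.28 and a median of 7.02 in WT hearts. This was the largest decrease among called genes outside the stretch, without overlap, at a log2 fold change of -0.37 ± 0.05 (SE, limma adj. P-value 3.69e-05). Cavin4, a coat protein of muscle caveolae, rose by 0.11 ± 0.03 (SE, limma adj. P-value 0.0231), and its call ended without Dp1Tyb heart 3, 4 or 12. Nrap, which anchors actin filaments during myofibril assembly and was chosen after its values were seen, had values of 11.34, 11.31, 11.23, 11.29 and 11.43 against a range of 11.38 to 11.70 and a median of 11.55, with 4 Dp1Tyb hearts below all WT hearts and a log2 fold change of -0.22 ± 0.05 (SE, limma adj. P-value 0.0125).

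Further increases, gathered from the largest changes and not from a list, were as follows. Mybphl, a myosin-binding protein of atrial muscle, was 8.79, 8.87, 8.80, 8.85 and 8.84 in Dp1Tyb hearts against a range of 8.26 to 8.73 and a median of 8.60 in WT hearts, with the groups apart and a log2 fold change of 0.27 ± 0.06 (SE, limma adj. P-value 0.0128). Mstn encodes myostatin, the secreted inhibitor of muscle growth, and rose by 0.23 ± 0.05 (SE, limma adj. P-value 0.00633), with Dp1Tyb hearts at 7.77 to 7.85 and WT hearts at 7.46 to 7.66. Car3, a carbonic anhydrase of muscle and fat, rose by 0.25 ± 0.04 (SE, limma adj. P-value 0.00112). Trim72, a membrane repair protein of striated muscle, rose by 0.17 ± 0.04 (SE, limma adj. P-value 0.0113) without overlap and was chosen after its values were seen. Slc16a12, a membrane transporter of creatine, rose by 0.22 ± 0.05 (SE, limma adj. P-value 0.02). Skeletal muscle markers were near the lower limit of the filter, with Myod1 and Myf5 below it and Myog at a log2 fold change of -0.02, so that 0 of the 11 tested members of that list were called.

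The markers of cardiomyocytes themselves leaned low in the ventricle without a call. In the ventricular cardiomyocyte list 13 of 17 tested members had a log2 fold change below 0 and the median was -0.065, but 0 were called. Myh7, the myosin heavy chain of the embryonic ventricle, was 16.78, 16.80, 16.88, 17.01 and 16.99 in Dp1Tyb hearts against a range of 16.92 to 17.32 and a median of 17.06 in WT hearts, which overlap, at -0.18 ± 0.07 (SE, limma adj. P-value 0.152). Myl2 was at -0.13 ± 0.05 (SE, limma adj. P-value 0.212) and Irx4 at -0.08 ± 0.04 (SE, limma adj. P-value 0.346). With the Y-linked level as a covariate the median of the list was -0.016, and within lanes 3, 6 and 7 it was -0.007, -0.047 and -0.131. Among hearts with a low Y-linked level it was 0.013, and among those with a high one, with 1 Dp1Tyb heart, -0.089. The mean log2 value over the list was 13.40 to 13.55 in Dp1Tyb hearts, inside the WT range of 13.36 to 13.71. Atrial, pacemaker and trabecular lists had medians of 0.034, 0.036 and 0.053 with 0 called members each. In the compact myocardium list the only called member of 12 was Prdm16, a transcription factor that fell by 0.17 ± 0.04 (SE, limma adj. P-value 0.0294), with values of 9.24, 9.23, 9.21, 9.09 and 9.28 below the WT range of 9.30 to 9.49. Of 48 tested ion channel and calcium handling genes, 0 were called.

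**Figure D4:**
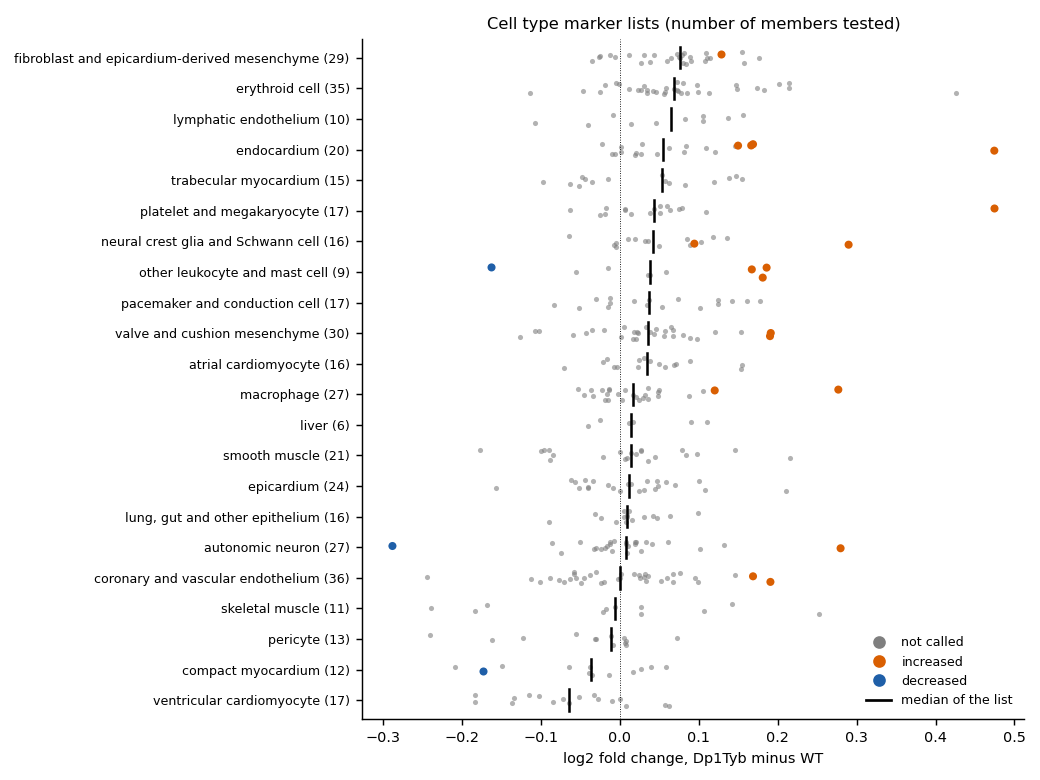
Log2 fold change of each tested member (points) of the 22 cell type marker lists, ordered by the median of the list (black bars), with the number of tested members in parentheses. Called members are orange where increased and blue where decreased. The medians run from -0.065 for ventricular cardiomyocytes to 0.076 for fibroblasts and epicardium-derived mesenchyme.

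The mesenchymal lists leaned the opposite way. Of 29 tested fibroblast markers 24 were above 0 with a median of 0.076, and of 56 collagen and fibrillar matrix genes 44 were above 0 with a median of 0.074, while 1 and 3 members were called, all increased. These medians were, under the fit with the Y-linked covariate, 0.039 and 0.045, with 0 and 1 members called. Within lanes 3, 6 and 7 the fibroblast median was 0.032, 0.060 and 0.179, and the collagen median was 0.042, 0.051 and 0.129. The mean log2 value over the fibroblast list was 11.62 to 11.73 in Dp1Tyb hearts and 11.46 to 11.71 in WT hearts, and the groups overlap. Col1a1, Pdgfra and Dcn, which define fibroblasts in this list, had log2 fold changes of 0.16, 0.08 and 0.03 and overlapped between the groups. Pcolce, which speeds the removal of the C-propeptide from fibrillar procollagens, had values of 10.48, 10.43, 10.41, 10.45 and 10.43 against a range of 10.21 to 10.42 and a median of 10.32, with a log2 fold change of 0.13 ± 0.03 (SE, limma adj. P-value 0.0225). Col23a1, a transmembrane collagen, rose by 0.12 ± 0.02 (SE, limma adj. P-value 0.00321) and P3h1, a prolyl 3-hydroxylase of collagen, by 0.09 ± 0.02 (SE, limma adj. P-value 0.037). Colgalt1, which adds galactose to hydroxylysine in collagen, rose by 0.10 ± 0.02 (SE, limma adj. P-value 0.0029), with all Dp1Tyb hearts at 11.21 to 11.25 above the WT range of 11.09 to 11.15. C1qtnf6, a secreted protein of the C1q and tumour necrosis factor family, rose by 0.17 ± 0.03 (SE, limma adj. P-value 0.00076) without overlap, and both were chosen after their values were seen. The count of collagen genes was 1 in place of 3 without Dp1Tyb heart 3, 4 or 12, and with 1 heart left out the median was 0.052 to 0.083.

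Within the matrix, genes that make and modify hyaluronan and sulfated glycans included 4 increased genes. Hyaluronan swells the endocardial cushions from which valves and septa form. Has2, the main hyaluronan synthase of the embryonic heart, had log2 values of 8.71, 8.64, 8.72, 8.71 and 8.68 in Dp1Tyb hearts against a range of 8.42 to 8.54 and a median of 8.52 in WT hearts. All Dp1Tyb hearts were above all WT hearts, and the log2 fold change was 0.19 ± 0.03 (SE, limma adj. P-value 0.000115). Papss2 makes the sulfate donor for glycan sulfation and rose by 0.19 ± 0.05 (SE, limma adj. P-value 0.0307). Hs6st2, a heparan sulfate 6-O-sulfotransferase, rose by 0.12 ± 0.03 (SE, limma adj. P-value 0.0427) and Hapln3, a hyaluronan link protein, by 0.06 ± 0.01 (SE, limma adj. P-value 0.0156). Together 4 of 49 tested proteoglycan and hyaluronan genes rose (8.16%, against 1.35% of all tested genes) and 0 fell, with a median of 0.022. The call of Papss2 ended without WT heart 1, 2 or 8 or Dp1Tyb heart 3, 4 or 7. The number of calls in the list was 2 without WT heart 8 or Dp1Tyb heart 3 and 1 without Dp1Tyb heart 4 or 7. Has2 and Papss2 are also the 2 increased genes of 30 tested markers of valve and cushion mesenchyme, whose defining markers Postn, Sox9 and Scx had log2 fold changes of 0.09, 0.10 and 0.00 and were not called.

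Proteases and adhesion molecules changed in both directions. Pcsk6, a proprotein convertase that activates members of the TGF-beta family, had values of 8.98 to 9.08 in the 5 Dp1Tyb hearts against a range of 8.72 to 8.83 and a median of 8.79 in WT hearts. The groups were well apart, with a log2 fold change of 0.24 ± 0.03 (SE, limma adj. P-value 8.06e-06). Adamts6, a metalloprotease needed for heart development, fell by 0.18 ± 0.04 (SE, limma adj. P-value 0.0112), with 4 Dp1Tyb hearts below all WT hearts. Ecm1, a secreted matrix protein, rose by 0.23 ± 0.04 (SE, limma adj. P-value 0.00418), and Thbs4, a thrombospondin that was chosen after its values were seen, by 0.17 ± 0.03 (SE, limma adj. P-value 0.0072). The integrin subunits Itgav and Itgb8, which pair as a receptor for latent TGF-beta, rose by 0.15 ± 0.03 (SE, limma adj. P-value 0.0193) and 0.11 ± 0.03 (SE, limma adj. P-value 0.0168). Icam1, a ligand for leukocyte integrins, rose by 0.17 ± 0.03 (SE, limma adj. P-value 0.00207), with Dp1Tyb hearts at 7.65 to 7.79 and WT hearts at 7.48 to 7.63. Cdh13, an anchored cadherin, fell by 0.22 ± 0.06 (SE, limma adj. P-value 0.041). In the integrin and adhesion list 3 of 41 tested members rose and 1 fell (7.32% and 2.44%, against 1.35% and 1.28% of all tested genes). In that list 1 was called without Dp1Tyb heart 7 or 12.

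The lists of signalling ligands and receptors held few called members or none. Of 66 tested Wnt pathway genes 3 rose (4.55%, against 1.35% of all tested genes) and 0 fell. Besides Wnt4 these were Wnt11, a ligand of the non-canonical pathway of the outflow tract, at 0.16 ± 0.04 (SE, limma adj. P-value 0.0316), and Prickle2, a planar polarity protein, at 0.11 ± 0.02 (SE, limma adj. P-value 0.008). Of 60 TGF-beta and BMP genes, Bmper, an extracellular regulator of BMPs, rose by 0.19 ± 0.05 (SE, limma adj. P-value 0.0332) and Acvr2a, an activin receptor, fell by 0.09 ± 0.02 (SE, limma adj. P-value 0.0129). Each is 1.67% of that list, against 1.35% increased and 1.28% decreased over all tested genes. In that list 0 members were called without Dp1Tyb heart 4 and 1 without Dp1Tyb heart 6 or WT heart 11 or 13, and leaving out any of 6 of the 15 hearts ended the call of Bmper. Igfbp4, which binds insulin-like growth factors, was the only called gene of 51 in the FGF, IGF and PDGF list, at 0.12 ± 0.03 (SE, limma adj. P-value 0.0346). No member was called among 33 Notch genes, 47 Hedgehog and cilium genes, 53 axon guidance genes and 19 retinoic acid genes.

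The lysosome and autophagy list held the largest number of increased genes. Lysosomes degrade proteins, glycans and lipids with acid hydrolases, and the genes of many of these enzymes share the palindromic E-box CACGTG, which transcription factors of the TFEB family bind. Of 61 tested members 11 rose and 0 fell, against 1.35% and 1.28% of all tested genes. The median log2 fold change was 0.046, with 47 members above 0. The mean log2 value over the 61 members was 9.94 to 9.96 in Dp1Tyb hearts and 9.87 to 9.92 in WT hearts, and the 2 groups did not overlap. This mean includes the 11 called members. Within lanes 3, 6 and 7 the median was 0.034, 0.043 and 0.078, and with the Y-linked level as a covariate it was 0.042.

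Of the 11 increased genes 10 are described here, and these were all hydrolases. The glycan-degrading enzymes were Hexa, a subunit of beta-hexosaminidase, Glb1, beta-galactosidase, Gusb, beta-glucuronidase, Gaa, acid alpha-glucosidase, and Arsa, arylsulfatase A. Hexa had values of 10.31, 10.27, 10.28, 10.25 and 10.26 in Dp1Tyb hearts against a range of 10.04 to 10.11 and a median of 10.08 in WT hearts. The gap between the groups was wider than the WT range, and the log2 fold change was 0.19 ± 0.02 (SE, limma adj. P-value 3.07e-06). Gaa was 11.51, 11.50, 11.58, 11.62 and 11.64 against a range of 11.34 to 11.53 and a median of 11.44, so that 3 Dp1Tyb hearts were above all WT hearts, with a log2 fold change of 0.14 ± 0.03 (SE, limma adj. P-value 0.0124). Glb1 rose by 0.11 ± 0.03 (SE, limma adj. P-value 0.0246), Gusb by 0.17 ± 0.05 (SE, limma adj. P-value 0.0488) and Arsa by 0.12 ± 0.03 (SE, limma adj. P-value 0.0489). The proteases were Ctsd, Ctsl, Ctsk and Lgmn. Ctsl, a cysteine cathepsin, was 12.11, 12.13, 12.17, 12.14 and 12.09 against a range of 11.94 to 12.06 and a median of 11.99, without overlap, at 0.14 ± 0.03 (SE, limma adj. P-value 0.0113). Ctsk, a cathepsin that cleaves collagen, was 8.19, 8.35, 8.05, 8.14 and 8.11 in Dp1Tyb hearts, highest in heart 4 and all above the WT range of 7.89 to 8.02, at 0.22 ± 0.04 (SE, limma adj. P-value 0.00207). Ctsd, the main aspartic cathepsin, rose by 0.12 ± 0.03 (SE, limma adj. P-value 0.0352) and Lgmn, an asparaginyl protease, by 0.12 ± 0.03 (SE, limma adj. P-value 0.00963). Lipa, the acid lipase, rose by 0.10 ± 0.02 (SE, limma adj. P-value 0.0153).

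Macrophages are rich in lysosomal enzymes. Their defining markers Csf1r, C1qa and Cx3cr1 were at log2 fold changes of -0.02, -0.02 and 0.04, none called, and 16 of the 27 tested macrophage markers were above 0 with a median of 0.017. The 2 members of that list that rose were Lgmn, which is also in the lysosome list, and Lyz2, which is given below. The summed normalized counts of that list were 8721 to 9353 in Dp1Tyb hearts and 8093 to 9353 in WT hearts. Several calls of lysosomal genes rested on single hearts. With a heart left out the number of called members was 4 to 10, namely 4 without Dp1Tyb heart 12, 6 without Dp1Tyb heart 4 or 6 and 7 without Dp1Tyb heart 7 or WT heart 13 or 16. The median stayed between 0.043 and 0.059. With the Y-linked level as a covariate 4 members were called.

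**Figure D5:**
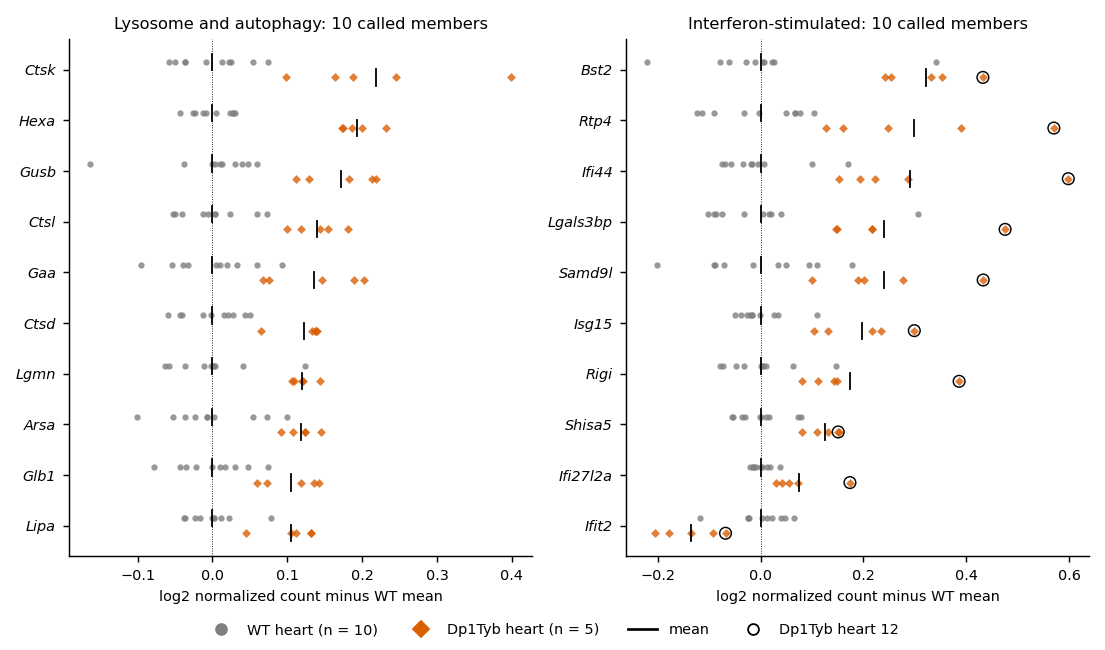
Log2 normalized count of each heart minus the WT mean of the gene, for 10 called members of the lysosome and autophagy list (left) and 10 of the interferon-stimulated list (right). Grey circles are WT hearts (n = 10), orange diamonds Dp1Tyb hearts (n = 5), black ticks group means, and Dp1Tyb heart 12 is ringed on the right. The right panel shows heart 12 at the top for most of the increased genes.

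The promoters of the increased lysosomal genes were read for the letters CACGTG, which are the same on both strands. RefSeq windows of GRCm38.p6 that run from 250 bases before to 50 bases after the start of each gene were used. Of the 11 genes 10 had a window, and 6 of these 10 held the letters. Of the 50 members of the list that were not called 40 had a window and 10 held the letters. The letters are in 7.15% of all 32851 windows and in 11.4% of 11180 tested genes with a window. Their presence is a description and was not tested, and both the motif and the genes were chosen after the values were seen. The stretches around the match nearest to the gene's start are given for Gaa and Glb1 (plus strand) and Ctsd, Ctsl, Lgmn and Arsa (minus strand), 5′ to 3′ with CACGTG in capitals, to show where the shared letters sit in genes that rose together.
Gaa: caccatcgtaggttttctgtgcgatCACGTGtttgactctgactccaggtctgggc
Glb1: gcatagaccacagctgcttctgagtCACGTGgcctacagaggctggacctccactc
Ctsd: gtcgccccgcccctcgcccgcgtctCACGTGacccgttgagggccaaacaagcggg
Ctsl: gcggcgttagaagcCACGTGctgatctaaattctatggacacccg
Lgmn: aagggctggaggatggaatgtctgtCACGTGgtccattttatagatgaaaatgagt
Arsa: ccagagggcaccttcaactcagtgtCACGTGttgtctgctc
These stretches are at chr11:119267798-119267853, chr9:114401005-114401060, chr7:142387895-142387950, chr13:64370726-64370770, chr12:102439111-102439166 and chr15:89477425-89477465 in the order given. The first base of the match lies 140, 48, 98, 236, 49 and 16 bases before the start. Lgmn has 2 windows and 1 of them holds the letters. The windows of Hexa, Ctsk, Gusb and Lipa do not hold them.

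Genes that interferons induce formed the second group of increases. Interferons induce genes with antiviral products, many of which carry an interferon-stimulated response element with a core of GAAA, any 2 bases and GAAA again. Of 55 tested members 10 rose and 1 fell (18.2% and 1.82%, against 1.35% and 1.28% of all tested genes). In all 49 had a log2 fold change above 0, and the median was 0.091. The mean log2 value over the list was 6.66, 6.68, 6.65, 6.69 and 6.83 in the Dp1Tyb hearts and 6.54 to 6.72 in the WT hearts with a median of 6.58. The groups therefore overlap, with WT heart 19 highest among WT and Dp1Tyb heart 12 above every other heart.

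Rtp4, a chaperone of membrane receptors that interferon strongly induces, had values of 6.27, 6.35, 6.23, 6.50 and 6.68 against a range of 5.98 to 6.21 and a median of 6.13. It was the only one of these genes apart from Shisa5 whose Dp1Tyb hearts all lay above the WT hearts, with a log2 fold change of 0.30 ± 0.07 (SE, limma adj. P-value 0.0125). Rtp4 lies on chromosome 16 at chr16:23520219-23614222, outside the duplicated stretch. Shisa5, a protein of the endoplasmic reticulum, rose by 0.13 ± 0.03 (SE, limma adj. P-value 0.00627). Isg15, a ubiquitin-like modifier, was 4.78, 4.81, 4.90, 4.91 and 4.98 against a range of 4.63 to 4.79 and a median of 4.66, with 4 Dp1Tyb hearts above all WT hearts and a log2 fold change of 0.20 ± 0.04 (SE, limma adj. P-value 0.0125). Ifi44 rose by 0.29 ± 0.07 (SE, limma adj. P-value 0.0156) and Samd9l by 0.24 ± 0.06 (SE, limma adj. P-value 0.0171). Bst2, which tethers budding virions, rose by 0.32 ± 0.08 (SE, limma adj. P-value 0.025) and Rigi, a sensor of viral RNA, by 0.17 ± 0.04 (SE, limma adj. P-value 0.0307). Lgals3bp and Ifi27l2a rose by 0.24 and 0.07. Ifit2, a defining member of the list, went the opposite way, at 8.17, 8.25, 8.21, 8.14 and 8.28 against a range of 8.23 to 8.41 and a median of 8.35, and fell by 0.14 ± 0.03 (SE, limma adj. P-value 0.00852). Lgals9, a galectin, and Gbp6, a guanylate-binding protein, are not in the list and were chosen after their values were seen, and rose by 0.25 ± 0.05 (SE, limma adj. P-value 0.00856) and 0.25 ± 0.05 (SE, limma adj. P-value 0.0113).

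The number of calls in this list rested on 1 heart. Without Dp1Tyb heart 12 it was 2 in place of 11, while with any other heart left out it was at least 8, and the median over the list without each heart in turn stayed between 0.063 and 0.119. Within lanes 3, 6 and 7 the median was 0.050, 0.079 and 0.201, and heart 12 is the Dp1Tyb heart of lane 7. With the Y-linked level as a covariate the median was 0.065 and 2 members were called, 1 increased and 1 decreased.

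This core was searched on both strands in the same promoter windows, where it is in 3.44% of all windows. Of the 10 increased members 6 had a window and 3 of these held it, and of the 44 members not called 35 had a window and 16 held it. It was absent from the windows of Ifi44, Samd9l, Lgals3bp and Ifit2. In Isg15 and Bst2 several copies overlap before the start, and these stretches on the minus strand are shown 5′ to 3′ with the run of overlapping matches in capitals.
Isg15: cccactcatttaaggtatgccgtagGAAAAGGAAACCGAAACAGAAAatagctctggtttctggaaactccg
Bst2: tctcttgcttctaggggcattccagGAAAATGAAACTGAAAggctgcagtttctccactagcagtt
They are at chr4:156200850-156200921 and chr8:71537562-71537627 of GRCm38.p6 and hold 3 and 2 matches.

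Genes of leukocytes other than macrophages were detected near the lower limit of the filter, and 9 of 21 listed genes were tested, of which 3 rose and 1 fell. Their summed normalized counts were 800 to 883 in Dp1Tyb hearts and 844 to 955 in WT hearts. S100a8 and S100a9, the subunits of the granulocyte protein calprotectin, rose by 0.19 ± 0.04 (SE, limma adj. P-value 0.00959) and 0.18 ± 0.04 (SE, limma adj. P-value 0.0102). The log2 values of S100a8 were 4.35, 4.51, 4.28, 4.15 and 4.20 in Dp1Tyb hearts, highest in heart 4, against a range of 4.07 to 4.16 and a median of 4.11 in WT hearts. Ngp, a granule protein of neutrophils, rose by 0.17 ± 0.04 (SE, limma adj. P-value 0.0338), and Ltf, lactoferrin, which was chosen after its values were seen, by 0.18 ± 0.04 (SE, limma adj. P-value 0.0202). Kit, the receptor of stem cell factor on mast cells and progenitors, fell by 0.16 ± 0.03 (SE, limma adj. P-value 0.00213), while Cpa3 and Hdc, the other defining mast cell markers, were at -0.02 and 0.06 and not called. Lyz2, a lysozyme of myeloid cells, had values of 9.20, 9.20, 9.07, 8.95 and 9.01 in Dp1Tyb hearts, all above the WT range of 8.73 to 8.92, and a log2 fold change of 0.28 ± 0.04 (SE, limma adj. P-value 0.000486). Lyz1, a near-identical copy of Lyz2, rose by 0.12 ± 0.03 (SE, limma adj. P-value 0.0128), and reads of the 2 genes may be shared in the counting. Lyz1 was chosen after its values were seen. Il33, a nuclear cytokine of stromal and endothelial cells, rose by 0.22 ± 0.05 (SE, limma adj. P-value 0.0109) without overlap. Il1r1, the receptor for interleukin 1, rose by 0.15 ± 0.04 (SE, limma adj. P-value 0.0284) and was chosen after its values were seen. Clu, clusterin, an inhibitor of complement, rose by 0.24 ± 0.06 (SE, limma adj. P-value 0.0189).

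Erythroid transcripts varied widely between hearts of 1 genotype. The 35 tested erythroid genes had a median log2 fold change of 0.069 with 29 above 0 and 0 called. Their summed normalized counts ran from 196015 to 417897 in Dp1Tyb hearts and from 102250 to 448110 in WT hearts. The defining markers Hba-a1 and Hbb-y were at 0.07 and 0.21. No member was called in the lists for epicardium, smooth muscle, pericytes, lymphatic endothelium, liver and other epithelia.

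Among the function lists, decreases were most numerous in those of nuclear proteins. Of 80 tested chromatin modifiers and high mobility group proteins 6 fell (7.5%, against 1.28% of all tested genes) and 0 rose. The median was -0.044, with 15 members above 0. Hmgb2 and Hmgb3, which bend DNA, had log2 fold changes of -0.14 ± 0.03 (SE, limma adj. P-value 0.0114) and -0.14 ± 0.03 (SE, limma adj. P-value 0.00606). Hmgb2 was 11.71, 11.72, 11.74, 11.66 and 11.58 in Dp1Tyb hearts, all below the WT range of 11.75 to 11.89. Hmgn2, a nucleosome-binding protein, fell by 0.09 ± 0.02 (SE, limma adj. P-value 0.0391), and the deacetylase Sirt1 fell by 0.09 ± 0.02 (SE, limma adj. P-value 0.0263). The Polycomb proteins Bmi1 and Ezh2 had log2 fold changes of -0.09 ± 0.02 (SE, limma adj. P-value 0.0163) and -0.08 ± 0.02 (SE, limma adj. P-value 0.0419). Hmgb2 and Ezh2 also belong to the E2F target set. The number of calls was 2 without Dp1Tyb heart 6 or 12 and 3 without Dp1Tyb heart 3 or 4.

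Splicing factors leaned low. Only 9 of 68 tested members had a log2 fold change above 0, against 48.2% of all tested genes outside the stretch. The median was -0.044, and 3 members fell (4.41%, against 1.28% of all tested genes). The mean log2 value over the list, which includes the 3 called members, was 11.03 to 11.05 in Dp1Tyb hearts and 11.07 to 11.11 in WT hearts, without overlap. Within lanes 3, 6 and 7 the median was -0.045, -0.050 and -0.034. Rbm3, an RNA-binding protein induced by cold, was 12.06, 12.05, 11.97, 11.93 and 11.99 against a range of 12.16 to 12.28 and a median of 12.22, well apart, at -0.22 ± 0.03 (SE, limma adj. P-value 0.000114). Ptbp2, a polypyrimidine tract-binding protein, was 10.70, 10.66, 10.70, 10.70 and 10.68, all below the WT range of 10.77 to 10.93, at -0.16 ± 0.04 (SE, limma adj. P-value 0.0119), and Hnrnph1 fell by 0.10 ± 0.03 (SE, limma adj. P-value 0.0386). With 1 heart left out 2 to 5 members were called, with 5 without WT heart 11. Of 80 tested cytosolic ribosomal protein genes, 0 were called and the median was 0.010.

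The decreased genes Cdkn1b, Cdkn2c and Pnrc2 come from no list. Cdkn1b encodes p27, an inhibitor of cyclin-dependent kinases, and had values of 10.52, 10.56, 10.55, 10.51 and 10.55 in Dp1Tyb hearts against a range of 10.65 to 10.72 and a median of 10.69 in WT hearts. The groups were apart by more than either range, and the log2 fold change was -0.16 ± 0.02 (SE, limma adj. P-value 2.36e-05). It was chosen after its values were seen. Cdkn2c, which encodes the CDK4 and CDK6 inhibitor p18, was 8.10, 8.21, 8.14, 8.14 and 8.16 against a range of 8.26 to 8.42 and a median of 8.29, without overlap, at -0.17 ± 0.04 (SE, limma adj. P-value 0.0121). Both are members of the E2F target set. Pnrc2, a cofactor of mRNA decapping, was 10.82, 10.83, 10.79, 10.75 and 10.82 against a range of 10.92 to 11.02 and a median of 10.97, the groups again apart, at -0.17 ± 0.02 (SE, limma adj. P-value 1.44e-05). Among p53 targets, Ccng1, cyclin G1, rose by 0.17 ± 0.04 (SE, limma adj. P-value 0.0299), while Ckap2, a spindle protein, fell by 0.12 ± 0.02 (SE, limma adj. P-value 0.00273) and Pmaip1, the apoptosis inducer Noxa, fell by 0.07 ± 0.02 (SE, limma adj. P-value 0.041). The median over the 35 tested p53 targets was 0.001. Without Dp1Tyb heart 6, 7 or 12, 1 of the 3 was called, and leaving out any of 5 of the 15 hearts ended the call of Ccng1.

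Single decreases came from other processes. Rec8, the cohesin subunit of meiosis, was 7.83, 7.83, 7.77, 7.73 and 7.90 in Dp1Tyb hearts against a range of 7.93 to 8.13 and a median of 8.06 in WT hearts, without overlap, at -0.23 ± 0.04 (SE, limma adj. P-value 0.00436), and Meioc, another meiotic gene, fell by 0.12 ± 0.03 (SE, limma adj. P-value 0.0456). Psat1, an enzyme of serine synthesis, fell by 0.16 ± 0.03 (SE, limma adj. P-value 0.00143) without overlap, and Nr1d2, a nuclear receptor of the circadian clock, fell by 0.15 ± 0.03 (SE, limma adj. P-value 0.0115). Smim36, a small membrane protein, fell by 0.25 ± 0.04 (SE, limma adj. P-value 0.000903). Ppm1e, a phosphatase, fell by 0.18 ± 0.03 (SE, limma adj. P-value 0.00214), and the long non-coding RNAs Gm37233 and Mir503hg, the host of a microRNA cluster, had log2 fold changes of -0.21 ± 0.05 (SE, limma adj. P-value 0.0303) and -0.16 ± 0.04 (SE, limma adj. P-value 0.0386). No member was called among 32 glycolysis genes, 51 fatty acid oxidation genes, 32 sterol synthesis genes, 36 immediate early genes and 24 genes of antigen presentation.

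By chromosome, the share of called genes was highest on chromosomes 19, with 19 of 495 tested genes (3.84%), and X, with 21 of 549 (3.83%). On chromosome 16 outside the duplicated stretch it was 12 of 364 (3.3%), 5 increased and 7 decreased. Of the X-linked genes 4 were increased and 17 decreased, and the decreased genes Sh3kbp1, an endocytic adaptor, Rbm3, Fndc3c1 and Septin6 were among the 15 largest decreases. Sh3kbp1 was 10.75, 10.72, 10.72, 10.69 and 10.74 in Dp1Tyb hearts against a range of 10.84 to 11.21 and a median of 10.93 in WT hearts, at -0.22 ± 0.06 (SE, limma adj. P-value 0.0332). Septin6 fell by 0.17 ± 0.05 (SE, limma adj. P-value 0.0377) and Fndc3c1 fell by 0.22 ± 0.06 (SE, limma adj. P-value 0.0416). With the Y-linked level as a covariate 6 of the 21 X-linked genes were still called, 5 decreased and 1 increased, and the median log2 fold change over the 549 genes was -0.009 in place of -0.012. The part of embryo sex in these values was not tested otherwise.

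Of the 399 called genes 398 had a transcript in GENCODE, and 1 of them, Gm7334, matched transcripts of the duplicated stretch over at least 200 bases with at least 95% identity. It matched 756 bases of Btg3 and 239 bases of Cxadr, both with 100% identity. Its log2 fold change of 1.03 ± 0.15 (SE, limma adj. P-value 0.000159) is therefore uncertain as a change outside the stretch.

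With the Y-linked level of each heart as a covariate 144 genes were called outside the stretch, 81 increased and 63 decreased, and 136 of them were among the 399. All 399 kept their sign. The median ratio of the log2 fold change with the covariate to that without it was 0.964, and the standard error was larger by a median factor of 1.14. Among the 7 hearts with a low Y-linked level and among the 8 with a high one, the difference between genotypes also had the sign of the pooled value for all 399 genes, which were chosen by that pooled value. Both of these comparisons rest on few hearts, 4 Dp1Tyb against 3 WT and 1 against 7. Log2 fold changes with the covariate were 0.46 for Vwf, 0.27 for Ache, 0.29 for Mal, 0.19 for Hexa, 0.20 for Has2, -0.33 for Ky and -0.14 for Cdkn1b, each still called. Those of Rtp4, Ddc, Chrm2 and Sh3kbp1 were 0.26, -0.25, -0.19 and -0.18 and were no longer called.

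With this covariate the number of called members was 1 in place of 6 for chromatin modifiers, 1 in place of 3 for splicing factors, 1 in place of 4 for proteoglycans, 1 in place of 4 for integrins and 1 in place of 4 for other leukocytes. It was 0 in place of 2 for TGF-beta and BMP genes, 1 in place of 2 for valve and cushion mesenchyme, 1 in place of 2 for glia, 1 in place of 2 for the sarcomere and 1 in place of 3 for acetylcholine and catecholamine genes. No member was called in the compact myocardium or the FGF, IGF and PDGF list. The count was 3 in place of 4 for the endocardium, 2 in place of 3 for both the Wnt and the VEGF lists, 1 in place of 2 for the coronary endothelium and 1 in place of 2 for meiosis. The counts were unchanged at 3 for hemostasis, 3 for matrix proteases and 2 for macrophages, and it was 5 in place of 3 for p53 targets. The median of the chromatin list was -0.044 and that of the splicing list -0.048.

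Calls close to the threshold depended on single hearts. Leaving out any of at least 8 of the 15 hearts ended the calls of Plvap, Chrm2, Nrn1, P3h1, Hs6st2, Cdh13, Ctsd, Gusb, Arsa, Ifi27l2a, Ngp, Hmgn2, Ezh2, Hnrnph1, Meioc, Pmaip1, Septin6, Fndc3c1 and Mir503hg. Without Dp1Tyb heart 12 the calls of Rtp4, Isg15 and Ifi44 ended, and no other heart left out had this effect. The calls of Vwf, Entpd1, Mmrn2, Cytl1, Wnt4, Calcrl, Ache, Ddc, Mal, Ky, Mybphl, Mstn, Has2, Pcsk6, Hexa, Ctsl, Ctsk, Lyz2, Kit, Rbm3, Ptbp2, Cdkn1b, Cdkn2c, Pnrc2, Rec8 and Psat1 held without each heart in turn.

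Single genes were also tested over the hearts alone. For the 30 genes with the largest changes and no overlap, exact two-sided permutation tests of the difference of means gave p from 0.000333 to 0.00233, where 0.000333 is the smallest that regrouping 5 and 10 hearts can give. Since these genes were chosen for the absence of overlap, small values are built into that choice.

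The hearts labelled Dp1TybDyrk1a+/+/- give a second set of hearts with the duplication. Compared with WT they share the WT hearts, and compared with Dp1Tyb they share the Dp1Tyb hearts, so the values below are set side by side and no more. The mean of the Y-linked genes was 9.56 to 9.65 in 4 Dp1TybDyrk1a+/+/- hearts and 7.32 in 1. Among Dp1Tyb hearts it was 7.06 to 7.50 in 4 and 9.52 in 1. The 2 mutant genotypes were also spread differently over the lanes. No covariate was used for the differences between them, and the part of sex and lane in these was not tested. For Vwf the log2 fold change was 0.47 in Dp1Tyb and 0.33 in Dp1TybDyrk1a+/+/- hearts compared to WT, and between the 2 mutant genotypes it was 0.15 ± 0.06 (SE, limma adj. P-value 0.177). For Entpd1 it was 0.25 and 0.23, with 0.02 ± 0.03 (SE, limma adj. P-value 0.763) between the mutants. For Cdkn1b it was -0.16 and 0.01, and the mutants differed by -0.16 ± 0.02 (SE, limma adj. P-value 0.00173). Pnrc2 had -0.17 and 0.00, with a difference of -0.17 ± 0.02 (SE, limma adj. P-value 0.00173). C1qtnf6 had 0.17 and -0.04, with a difference of 0.21 ± 0.03 (SE, limma adj. P-value 0.00354). For Ky the 2 values were -0.37 and -0.06, and the difference was -0.30 ± 0.05 (SE, limma adj. P-value 0.013). Hexa, Has2 and Rtp4 did not pass the threshold between the mutants, with differences of 0.09 ± 0.02 (SE, limma adj. P-value 0.055), 0.09 ± 0.03 (SE, limma adj. P-value 0.122) and 0.05 ± 0.08 (SE, limma adj. P-value 0.758).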

How the data were processed

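RNA from 20 whole hearts at E13.5 (10 WT, 5 Dp1Tyb and 5 Dp1TybDyrk1a+/+/-) was made into mRNA libraries and sequenced. The deposited values are log2-transformed normalized counts of 48795 Ensembl genes, which the authors normalized over all 20 hearts, and the transformation is not named in the sources used here. The submitters' processing notes name Trimmomatic 0.36, STAR 2.5.2a, RSEM 1.2.31, DESeq, DESeq2 and GRCm38. Since counts were not used here, limma 3.58.1 (R 4.3.3) was run on the log2 values with 1 mean per genotype over all 20 hearts and an intensity trend. Tested genes, 15304 in all, had normalized counts averaging 10 or more, and P-values were adjusted over them by the Benjamini-Hochberg method. The fit was tested on simulated data. Read depth is unknown, so precision rests on the spread between hearts. Because the labels do not say which embryos share a litter, P-values measure the spread between these hearts. Exact permutation tests went through all 3003 regroupings of the hearts in Python 3.11.15 with numpy 2.4.6.

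The members and lists were chosen with earlier results of these data known. The genes named were the 15 largest called increases and 15 largest called decreases without overlap between genotypes. To these were added the called members of the lists, up to 6 per list by adjusted P-value over both directions. The defining markers of the lists and genes that the text names as chosen after their values were seen complete the set. The remaining called members of the lysosome and interferon lists were named after their values were seen. Gene names came from GENCODE M39, and positions and promoters came from RefSeq for GRCm38.p6, matched by symbol. Similar transcripts were sought with blastn 2.17.0. Alternatives were other filters, scalings, weights and covariates, fewer hearts, and each heart left out. The hearts of the Dp1TybDyrk1a+/+/- genotype were not described for their own sake. Some genes of the lists are not reported here by name.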

Additional observations from a re-analysis of the deposited data

Results flagged for a closer look

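Of 194 sets of hearts tested, the Dp1Tyb and the WT hearts of 97 genes, 12 held 1 heart far from the others of its genotype by Dixon's criterion. Chance meets this criterion in about 1 of 20 sets, and 12 is not far above that share. The sets come from the same hearts, so repeated flags of 1 heart are not separate observations. In 4 of the 12 this was WT heart 19, which also had the highest mean of interferon-stimulated genes among WT hearts. Its log2 values were 10.31 for Plvap, 3.99 for Ngp, 4.79 for Isg15 and 4.02 for Ltf. In WT heart 10 the values were 9.92 for Vwf, the lowest, 9.24 for Entpd1, the highest, and 11.21 for Sh3kbp1. The others were 9.94 for Hs6st2 in WT heart 2, 8.23 for Ifit2 in WT heart 8, 10.17 for Lipa in WT heart 11, 9.16 for Mir503hg in WT heart 20 and 7.92 for Ache in Dp1Tyb heart 6. Whether anything beyond chance sets these hearts apart was not tested.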

How the results depend on the processing

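Of the genes outside the duplicated stretch 399 were called, 205 increased and 194 decreased. The counts stayed within 1.5 times of these at a mean normalized count of at least 100, with centring on the median, quantile normalization, no trend, a robust fit or lane as a covariate. Decreases numbered 116 with no filter on low values, where more genes were tested. With only the Dp1Tyb and WT hearts 704 were called (344 increased and 360 decreased), and with arrayWeights 1347 (643 and 704). With the Y-linked level as a covariate 144 were called (81 and 63), and with lane added 91 (44 and 47). Among hearts with a low Y-linked level, an alternative chosen after seeing the data, 25 were called (17 and 8) from 4 Dp1Tyb and 3 WT hearts. Apart from the filter and the fewer hearts, the cause was not tested. With 1 heart left out 196 to 410 were called, 116 to 219 increased and 70 to 191 decreased. The lowest counts were without Dp1Tyb heart 4 (called and decreased) and Dp1Tyb heart 12 (increased), and without WT heart 20 decreases numbered 128. Of 97 genes followed by name, none changed direction in any of these fits, and 45 kept their call with the Y-linked covariate, 92 with lane and 63 to 92 with a heart left out. The Dp1Tyb and WT hearts were not paired because the labels do not give the litter. The part of litter and of the strain that the WT hearts came from was not tested. Depth is unknown, so no limit of detection was set.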

Other observations

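Lists that the report has not described held single decreased genes. Among 50 tested cardiac transcription factors, 0 rose and 1 fell, which was Prdm16, with a median log2 fold change of -0.010. Among 47 imprinted genes the only called member was Ddc and the median was -0.002. Among 43 genes of the unfolded protein response and chaperones it was Rbm3, among 41 genes of amino acid metabolism and the integrated stress response it was Psat1, and among 24 genes of the circadian clock it was Nr1d2, with medians of 0.017, 0.001 and -0.004. Each of these genes decreased.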
